A study of Mus musculus with 12 samples.

Results

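The miRNAs described here are mmu-miR-126a-3p, mmu-miR-126a-5p, mmu-miR-143-3p and mmu-miR-145a-5p, 4 miRNAs that are known for their abundance in blood vessels. They were taken by exact name from the 1881 mouse miRNAs on the array, and all 4 were present. They were read as possible RNA of vessel cells in a preparation meant to hold vesicles of microglia. Microglial exosomes, captured with an antibody to CD11b, were prepared from the cerebral cortex and hippocampus of C57BL/6 mice, which were adult males 12 weeks old, and their RNA was hybridised to 12 one-colour miRNA arrays. The sham group went through the procedure with no impact (3 arrays), and the other mice had repetitive mild traumatic brain injury (rmTBI), which was 4 closed-head impacts 48 h apart, and were killed at 3, 14 or 42 days post-injury (DPI; 3 arrays each). The sources name no other treatment, transgene or deletion, and all groups shared strain, sex and preparation. All mice were perfused with PBS before the brain was taken, a step that washes blood out of the vessels but leaves the vessel wall in the tissue. CD11b is a surface protein of microglia and other myeloid cells. The sources do not say whether an array held RNA of 1 animal or of several.

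miRNAs are short RNAs that are cut from a hairpin precursor, and each strand of the hairpin can give a mature miRNA, named 5p or 3p after its arm. The mature miRNA pairs through its seed, the bases near its 5′ end, with messenger RNAs and lowers their translation or stability. miR-126a is made in endothelial cells from within Egfl7, a gene for a secreted endothelial protein, and its 3p arm is known for keeping vessels intact by sustaining signalling of vascular endothelial growth factor. miR-143 and miR-145a are cut from 1 primary transcript and are known for the contractile state of vascular smooth muscle; pericytes and fibroblasts make them too.

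The RefSeq sequence tables held an entry for miR-126a-3p, the member measured on every array, and its sequence is shown for that reason. The mature miRNA lies at chr2:26591402-26591423 on the plus strand of GRCm38.p6, within its hairpin at chr2:26591357-26591429. Both lie inside Egfl7 (chr2:26581083-26592682). In the first line below, capitals mark the seed (bases 2 to 8), and in the second they mark the mature 3p arm within the hairpin. This seed was found in 1 of the 1679 mature miRNAs of the table, which is miR-126a-3p itself.
miR-126a-3p: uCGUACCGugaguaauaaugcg
Mir126a hairpin: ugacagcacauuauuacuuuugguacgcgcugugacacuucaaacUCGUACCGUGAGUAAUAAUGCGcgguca
The other members are miR-126a-5p, miR-143-3p and miR-145a-5p.

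Arrays differed in brightness with the groups, which bears on every value that follows. The 75th percentile of signal, taken over the 230 miRNAs detected on all arrays, was between 217 and 348 intensity units on the sham arrays, 401 and 619 at 3 DPI, 588 and 1173 at 14 DPI, and 1385 and 2936 at 42 DPI. The number of miRNAs detected ran from 243 to 285, 326 to 416, 408 to 474 and 490 to 579 in the same order. Slides also followed the groups. Slide 1 held the 3 sham arrays and 3 DPI replicate 1, and slide 2 held the other 8 arrays, so that a difference between the 14 or 42 DPI arrays and sham rests on a difference between slides except through that single 3 DPI array. Values are therefore given as intensity and as log2 of the intensity over the 75th percentile of the same array, called scaled signal below. Scaled signal below -5.06, which is 0.03 of the 75th percentile, was set to that floor. Detection on an array required that, for either probe of the miRNA, a share above 0.5 of its kept spots was well above background.

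miR-126a-3p was detected on all 12 arrays, and it was the only member seen on every sham array. miR-143-3p was detected on 0 of 3 sham arrays, 2 of 3 arrays at 3 DPI and all 3 at 14 and 42 DPI. miR-126a-5p was detected on 0 sham and 0 3 DPI arrays, on 2 of 3 at 14 DPI and on 3 of 3 at 42 DPI. miR-145a-5p was detected on the 3 arrays of 42 DPI and on no other. The order in which the members came into view followed the brightness of the arrays, and the part of brightness in it was not tested. The 2 probes of miR-126a-3p gave the same picture. Those of the other members differed in strength, and some detections rest on 1 probe. For miR-143-3p, 1 of 44 spots of each probe was well above background over the sham arrays, against 43 of 43 of each at 42 DPI. For miR-145a-5p, 1 probe had 16 of 44 spots above background at 42 DPI and the other 38 of 45. For miR-126a-5p, these counts were 17 of 43 and 45 of 45. At 14 DPI they were 0 of 45 and 25 of 40 for the same probes, so detection of miR-126a-5p there rests on 1 probe. The same holds for miR-145a-5p on 42 DPI replicate 2, with 0 of 14 and 8 of 15 spots.

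**Figure D1:**
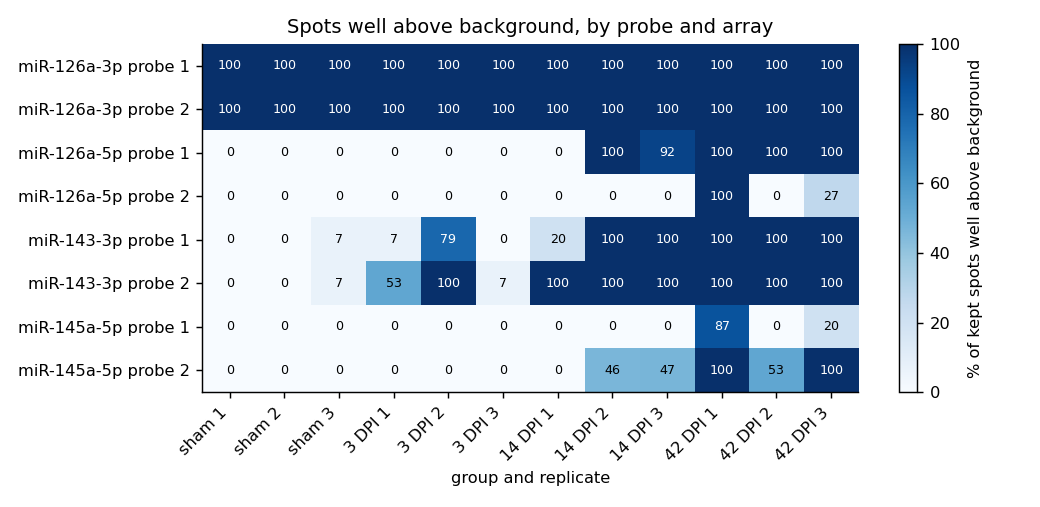
Percent of kept spots well above background for the 2 probes of each of the 4 miRNAs (rows) on the 12 arrays (columns, group and replicate); darker cells stand for a higher percent, printed in the cell. Both miR-126a-3p probes have all spots above background on every array, whereas the other 3 miRNAs have at most 1 such spot a probe on the sham arrays and more at 42 DPI.

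miR-126a-3p had intensities of 286, 301 and 437 on the sham arrays, 543, 567 and 343 at 3 DPI, 620, 1861 and 1578 at 14 DPI, and 4664, 2209 and 2526 at 42 DPI (replicates 1 to 3 in each). The 42 DPI arrays were all brighter than every other array for this miRNA. The 75th percentile moved in the same direction, and scaled signal took most of that difference away. Scaled signal was 0.00, 0.47 and 0.33 on the sham arrays, with a mean of 0.27 ± 0.24 (SD, n = 3). At 3 DPI it was 0.44, -0.13 and -0.40, with a mean of -0.03 ± 0.42 (SD, n = 3). At 14 DPI it was 0.08, 0.67 and 0.50, with a mean of 0.41 ± 0.30 (SD, n = 3). At 42 DPI it was 0.67, 0.67 and 0.44, with a mean of 0.60 ± 0.13 (SD, n = 3). Sham overlapped with each injured group. The lowest arrays were the pair of 3 DPI arrays on slide 2, and the 3 DPI array on slide 1 was among the sham values.

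In limma, fitted over all 12 arrays and the 486 miRNAs that were detected on every array of at least 1 group, miR-126a-3p did not pass the test in any of the 6 comparisons. Its difference from sham was -0.30 (95% interval -0.82 to 0.23, adjusted p = 1) at 3 DPI, 0.15 (-0.38 to 0.67, adjusted p = 0.801) at 14 DPI and 0.33 (-0.20 to 0.85, adjusted p = 0.29) at 42 DPI, all on the log2 scale. The interval at 42 DPI reaches from a slightly lower level to 0.85 higher. The value at 3 DPI was 0.50 with no scaling and 0.17 with the slide as a block, so that its direction depends on both. Between injured groups, 42 DPI was 0.62 above 3 DPI (95% interval 0.10 to 1.15), with adjusted p = 0.0599 in limma. The lowest 42 DPI array and the highest 3 DPI array both stood at 0.44. With the slide as a block this difference was 0.86 and was called (limma, adjusted p = 0.0335), and it was called under 6 alternatives in all. On the 8 arrays of slide 2 alone it was 0.86, with adjusted p = 0.0564 in limma. The 2 probes gave 0.64 and 0.62 for it.

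**Figure D2:**
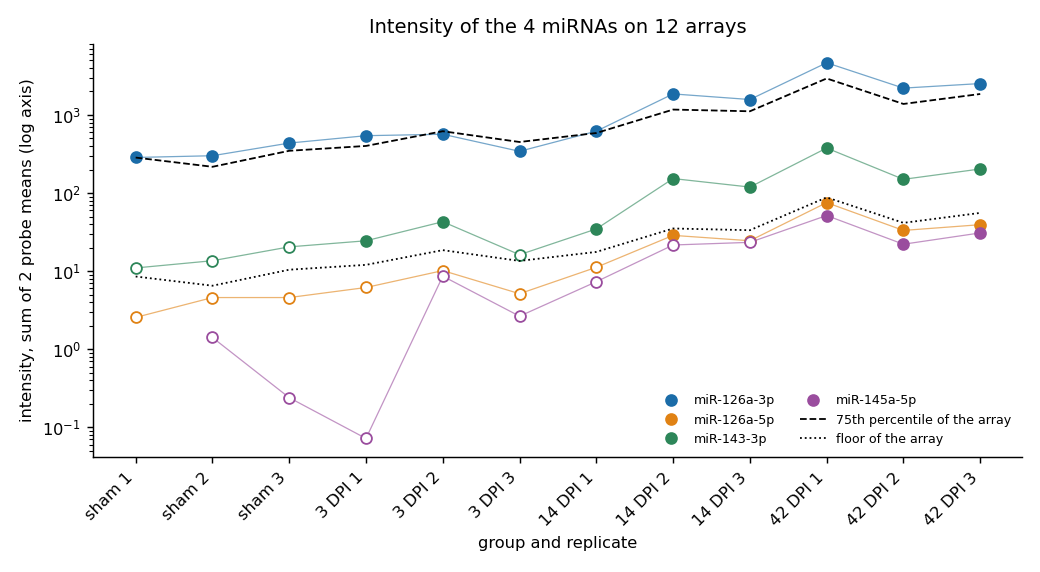
Intensity (sum of the means of 2 probes, log axis) of the 4 miRNAs on each array, by group and replicate; filled points were detected, open points were not, the dashed line is the 75th percentile of the array and the dotted line its floor. miR-126a-3p ran close to the dashed line on all arrays, miR-126a-5p and miR-145a-5p lay under the floor on all 12, and miR-145a-5p on sham replicate 1 was below 0 and is not drawn.

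miR-126a-5p comes from the other arm of the same hairpin. Its intensities were 2.56, 4.59 and 4.59 on the sham arrays, 6.18, 10.2 and 5.14 at 3 DPI, 11.2, 28.7 and 24.5 at 14 DPI, and 75.5, 33.2 and 39.4 at 42 DPI. The 3 arrays of 42 DPI were above all others in intensity. Divided by the 75th percentile of its own array, however, the signal was below the floor on all 12 arrays, so its scaled values have no order and the difference in each comparison is 0 by construction. Before the floor, scaled signal at 42 DPI was -5.28, -5.38 and -5.56. The lowest scaled signal of any detected miRNA was between -3.66 and -4.64 on the sham arrays, so a miRNA at the 42 DPI level could not have been detected there. No lower bound for the difference from sham was above 1-fold.

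The 2 arms of miR-126a could be set against each other where both were detected, which was on 5 arrays (14 DPI replicates 2 and 3, and all of 42 DPI). Over these arrays the log2 ratio of the 3p to the 5p arm spanned 0.10 (SD 0.04), and the scaled signal of miR-126a-3p ran from 0.44 to 0.67. A ratio within an array leaves out the brightness of the array. The size of the ratio depends on the probes and has no reading as a level. The ratio at 42 DPI less that at 14 DPI, with 14 DPI replicate 1 included although its 5p arm was not detected, was 0.06 (exact permutation test, two-sided, p = 0.7; the smallest p with 3 arrays against 3 is 0.1). With the software's total gene signal it was -1.77 (exact permutation test, p = 0.1). That value rests on the 0.1 which the software gives for the undetected arm, so it cannot be read as a direction. With the brightest probe the difference was -0.002.

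miR-143-3p had intensities of 11.0, 13.6 and 20.5 on the sham arrays, 24.5, 43.0 and 16.2 at 3 DPI, 34.7, 153 and 119 at 14 DPI, and 377, 150 and 203 at 42 DPI. The 42 DPI arrays and 2 of the 14 DPI arrays stood well apart from the rest, and 14 DPI replicate 1 lay near the 3 DPI arrays. Scaled signal was -4.70, -4.00 and -4.09 on the sham arrays, with a mean of -4.26 ± 0.38 (SD, n = 3). At 3 DPI it was -4.03, -3.85 and -4.79, with a mean of -4.23 ± 0.50 (SD, n = 3). At 14 DPI it was -4.08, -2.93 and -3.22, with a mean of -3.41 ± 0.60 (SD, n = 3). At 42 DPI it was -2.96, -3.21 and -3.19, with a mean of -3.12 ± 0.14 (SD, n = 3). Sham and 3 DPI overlapped throughout, 14 DPI overlapped with both through replicate 1 when replicate numbers were not matched, and 42 DPI was above all sham and all 3 DPI arrays. Of the 486 tested miRNAs, 31.3% had all 42 DPI arrays above all sham arrays, and 28.6% had them above all 3 DPI arrays.

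**Figure D3:**
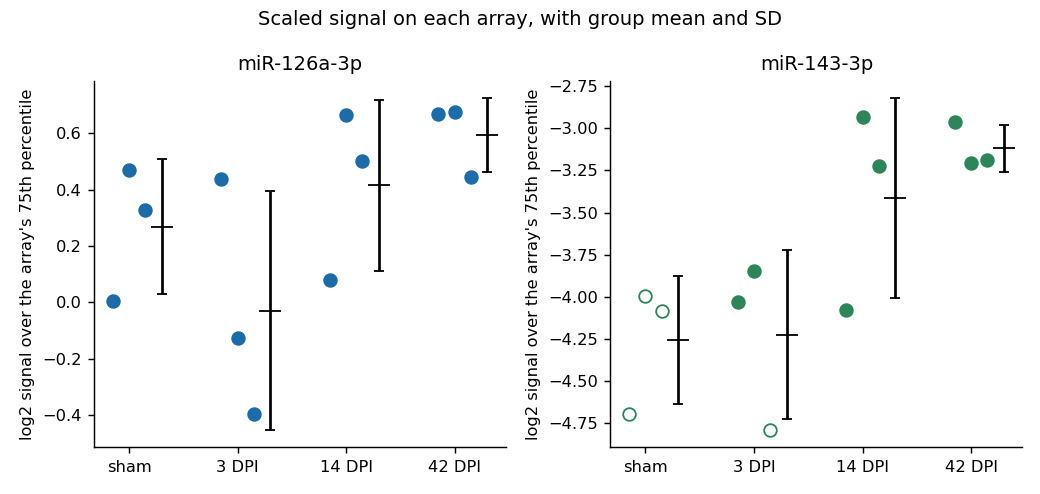
Scaled signal (log2 of intensity over the 75th percentile of the array) of miR-126a-3p and miR-143-3p on each array by group; filled points were detected, open points were not, and bars give the group mean ± SD (n = 3). The miR-126a-3p groups overlap except for 3 and 42 DPI, and the 42 DPI values of miR-143-3p, from -3.21 to -2.96, lie above all sham and 3 DPI values.

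miR-143-3p was the only one of the 4 members called in limma, and it was called in 2 of the 6 comparisons. At 42 DPI it was higher than sham by 1.14 (95% interval 0.36 to 1.92; adjusted p = 0.0343), a direction held under every scaling tried but turned by the normexp background correction, which gave -0.95. Since miR-143-3p was not detected on any sham array, its fold is given as a bound on the group means. The 42 DPI mean was 1.83-fold above the mean sham limit, set on each array by the lowest detected signal or its own value. This bound takes no account of the spread between arrays. Normexp adds an offset of 50 to each spot before scaling, which lifts a faint miRNA more on dim arrays than on bright ones. The part of the offset in the turned direction was not tested. Under normexp the median of all tested miRNAs was itself at -1.67. miR-143-3p stood 0.72 above that median, compared with 1.23 above it otherwise. Without any 1 of the 6 arrays compared the difference was between 0.92 and 1.27, but it was no longer called, with adjusted p between 0.0542 and 0.131 in limma. With the slide as a block, where only 3 DPI replicate 1 links the slides, the difference was 1.43 and adjusted p = 0.243. The 2 probes differed little, with 1.13 and 1.15.

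At 42 DPI miR-143-3p was also higher than at 3 DPI by 1.11 (95% interval 0.33 to 1.89; limma, adjusted p = 0.0372). Among slide 2 arrays, with 2 of 3 DPI, it was 1.20 with adjusted p = 0.0985, and without 3 DPI replicate 3 it was 0.82 with adjusted p = 0.134. The differences from sham were 0.03 at 3 DPI (adjusted p = 1) and 0.85 at 14 DPI (95% interval 0.06 to 1.63, limma, adjusted p = 0.191). The matching bound on the means at 14 DPI was 1.50-fold, again without the spread between arrays. 14 DPI was 0.81 above 3 DPI (adjusted p = 0.237), and 42 DPI was 0.29 above 14 DPI (95% interval -0.49 to 1.08; adjusted p = 0.624). Sham and 14 DPI arrays of the same number deviated together, but no label pairs them. Between arrays of the same number, called pairs here, miR-143-3p was higher at 14 DPI by 0.61, 1.06 and 0.86. With the pairs as a block in a fit of these 2 groups, the SE was 0.12 instead of 0.34 and adjusted p = 0.0989 in limma. These pairs were picked from the same data, so the smaller SE adds no support. miR-126a-3p was higher by 0.07, 0.19 and 0.17 within the pairs (adjusted p = 0.178). In the fit without pairs, the call at 14 DPI depended on 14 DPI replicate 1, without which the differences were 1.18 from sham (adjusted p = 0.0246) and 1.15 from 3 DPI (adjusted p = 0.0363). 42 DPI then differed from 14 DPI by -0.04. Leaving out that array raised the calls over all tested miRNAs as well. At 14 DPI, 84 of 486 were then called higher than sham, compared with 8 on all arrays. Against 3 DPI these counts were 72 and 3.

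miR-145a-5p gave intensities of -0.13, 1.41 and 0.24 on the sham arrays, where no spot of either probe was well above background. The intensities were 0.07, 8.63 and 2.65 at 3 DPI, 7.33, 21.6 and 23.4 at 14 DPI, and 51.6, 22.1 and 30.9 at 42 DPI. The 42 DPI and the brighter pair of 14 DPI arrays overlapped, and both were above all sham and 3 DPI arrays. All 12 scaled values were below the floor, as for miR-126a-5p, so no comparison could be read and no bound was above 1-fold. On the 3 arrays where both were detected, all of 42 DPI, the log2 ratio of miR-143-3p to miR-145a-5p spanned 0.15, and the scaled signal of miR-143-3p ran from -3.21 to -2.96. On the sham and 3 DPI arrays this ratio could not be followed, because 1 or both partners were not detected.

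Among all miRNAs tested, 0% were called at 3 DPI against sham, 3.7% at 14 DPI against sham, 34.2% at 42 DPI against sham, 0.617% at 14 against 3 DPI, 0% at 42 against 14 DPI and 38.3% at 42 against 3 DPI. The members called were 0, 0, 1, 0, 0 and 1 of 4 in the same order. miR-126a-5p and miR-145a-5p, at the floor throughout, could not be called in any of them, so the counts rest on the other 2 members and are too few to set against these shares. At an unadjusted p under 0.05 in limma they were 0, 1, 1, 1, 0 and 2 of 4. Over all tested miRNAs these counts were 11, 105, 231, 98, 53 and 244 of 486. All 4 members passed the filter on detection, but miR-126a-5p and miR-145a-5p did so only through the 42 DPI arrays and miR-143-3p only through the 14 and 42 DPI arrays. The median change of all tested miRNAs at 42 DPI against sham was -0.09, and the 25th and 75th percentiles were -1.10 and 0.43. miR-126a-3p lay inside that range and miR-143-3p above it, and above the 95th percentile of 1.03.

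**Figure D4:**
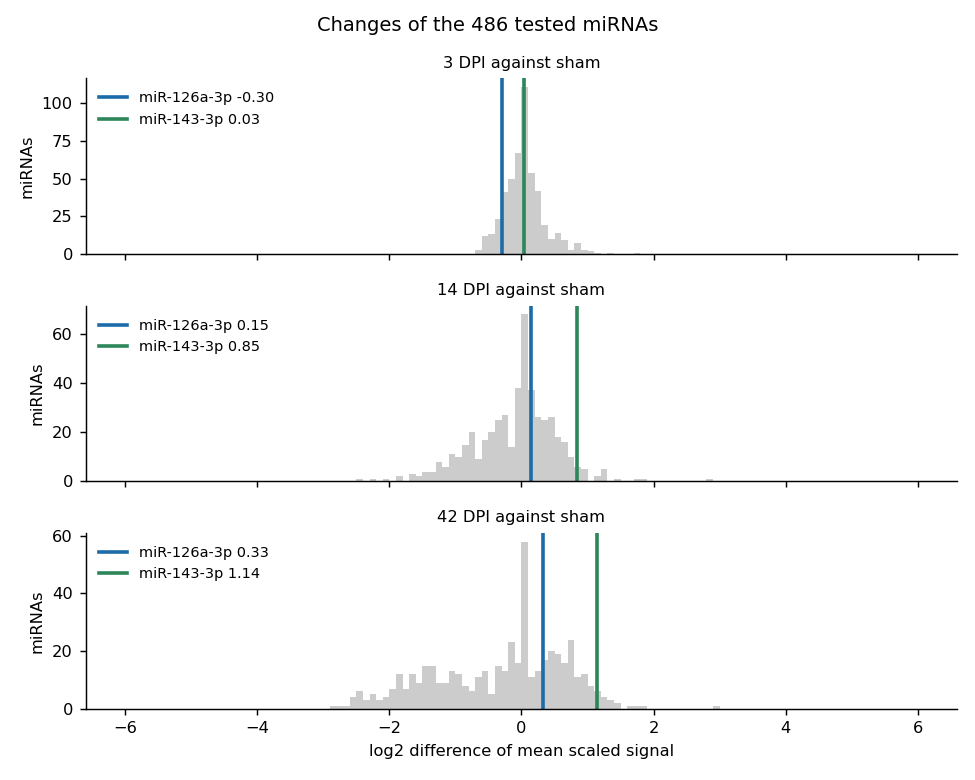
Histograms of the log2 difference of mean scaled signal from sham (x axis) over the 486 tested miRNAs (y axis, number of miRNAs) at 3, 14 and 42 DPI, with lines for miR-126a-3p and miR-143-3p. miR-143-3p moves from 0.03 to 0.85 and 1.14, toward the upper edge of the histogram, and miR-126a-3p stays between -0.30 and 0.33; the tall bar at 0 includes miRNAs at the floor in both groups.

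The remaining products of these loci and their close relatives, miR-126b-5p, miR-126b-3p, miR-143-5p, miR-145a-3p and miR-145b, were not detected on any array. Of 8 other miRNAs linked to endothelium, 6 were tested and all 6 were detected on every array, whereas miR-10a-5p and miR-10b-5p, which are abundant in peripheral endothelium, were detected on none. At 42 DPI against sham, 2 of the 6 were called, both higher, where 66 of all 486 tested miRNAs were called higher and 166 in either direction. The median change of the 6 was 0.46. These were miR-218-5p, which targets the Robo receptors of vessel and axon guidance, at 0.95 (SE 0.27; limma, adjusted p = 0.0286), and miR-101a-3p, known for its targeting of the histone methyltransferase Ezh2, at 0.85 (SE 0.27; adjusted p = 0.0412). miR-218-5p is also abundant in neurons. No miRNA of this list was called at 3 or 14 DPI against sham.

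Of 9 other miRNAs linked to smooth muscle, pericytes or mesenchyme, 6 were tested and 1, miR-140-5p, was detected on all arrays. miR-214-3p and miR-214-5p, which mark mesenchyme and mural cells, were detected on none. At 42 DPI against sham, 2 of the 6 were called, both higher, against the same 66 and 166 of 486. The median fitted change was 0.33, with 4 of the 6 not detected on any sham array. They were miR-140-5p, a miRNA of cartilage and mesenchyme, at 0.75 (SE 0.19; limma, adjusted p = 0.0205), and miR-133b-3p, a miRNA of muscle that is also found in midbrain neurons (adjusted p = 0.0152). miR-133b-3p was not detected on any sham array and passed the filter through the 14 and 42 DPI arrays. Its 42 DPI mean was 1.28-fold above the mean sham limit, a bound that takes no account of the spread. miR-199a-3p, made by mural cells and fibroblasts, was not called (adjusted p = 1) and was detected on 0, 1, 2 and 3 arrays of the groups in order of time.

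The patterns most like that of each detected member were sought among the 229 other miRNAs detected on all 12 arrays, by the root mean square difference over the arrays after each miRNA was centred on its own mean. For miR-126a-3p these were miR-9-3p (0.11), miR-26b-5p (0.15) and miR-100-5p (0.17), against a median of 0.42 over all candidates. miR-9-3p is a miRNA of neurons and their precursors, miR-26b-5p is found in most tissues, and miR-100-5p stood on the endothelial list. For miR-143-3p they were miR-381-3p (0.16), miR-495-3p (0.18) and miR-23a-3p (0.18), against a median of 0.59. miR-381-3p and miR-495-3p come from the large imprinted miRNA cluster expressed in brain, and miR-23a-3p is widely expressed. Of these 3, miR-23a-3p was called at 42 DPI against sham, at 1.04 (limma, adjusted p = 0.0138). miR-126a-5p and miR-145a-5p, at the floor throughout, have no pattern to compare.

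Some markers of other cells differed at 42 DPI as well, and the preparation was not made up of myeloid miRNAs alone. Of 5 myeloid miRNAs, 3 were tested and none was detected on every array: miR-142a-3p, which is made in blood-derived cells and microglia, was detected on 0, 0, 2 and 3 arrays of sham, 3, 14 and 42 DPI, and miR-223-3p on 1, 3, 3 and 3. The mean scaled signal of miR-142a-3p at 42 DPI, -4.44, was below the lowest detected signal of sham replicates 1 and 2 (-4.24 and -3.66). It could not have been detected on those arrays at that level. Sham replicate 3 (-4.64) and the 3 DPI arrays (-4.79, -5.51 and -5.04) had a lowest detected signal below that level, and miR-142a-3p was not detected on them. All 6 neuronal and all 3 oligodendrocyte miRNAs were detected on all arrays, as was miR-126a-3p. At 42 DPI against sham, 2 of 6 neuronal and 2 of 3 oligodendrocyte miRNAs were called higher, again where 66 of 486 were. Of the 3 tested myeloid miRNAs, miR-142a-3p and miR-146a-5p were called higher, but both passed the filter only through the 42 DPI arrays. Both were detected on no sham array, and for neither was the bound above 1-fold. miR-223-3p went the other way and was not called, at -0.13 (SE 0.13, limma, adjusted p = 0.493). The 1 tested erythrocyte miRNA, miR-486a-5p, was called lower (limma, adjusted p = 0.023), but it was not detected on any sham array and stood near the floor at 42 DPI, so its difference has no size. The summed scaled signal of the oligodendrocyte list was between 0.85 and 1.33 in sham and between 2.04 and 2.15 at 42 DPI, and that of the myeloid list between -2.97 and -2.57 and between -2.74 and -2.39. Those of the neuronal list were 4.03 to 4.44 and 4.89 to 5.08, and those of the erythrocyte list, with miR-144-3p and miR-144-5p not detected on any array, -3.52 to -2.95 and -4.50 to -3.59. The part of these cell types in the miR-143-3p difference was not tested. In such a preparation, fewer vesicles from a cell type and less of a miRNA in each vesicle cannot be told apart.

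**Figure D5:**
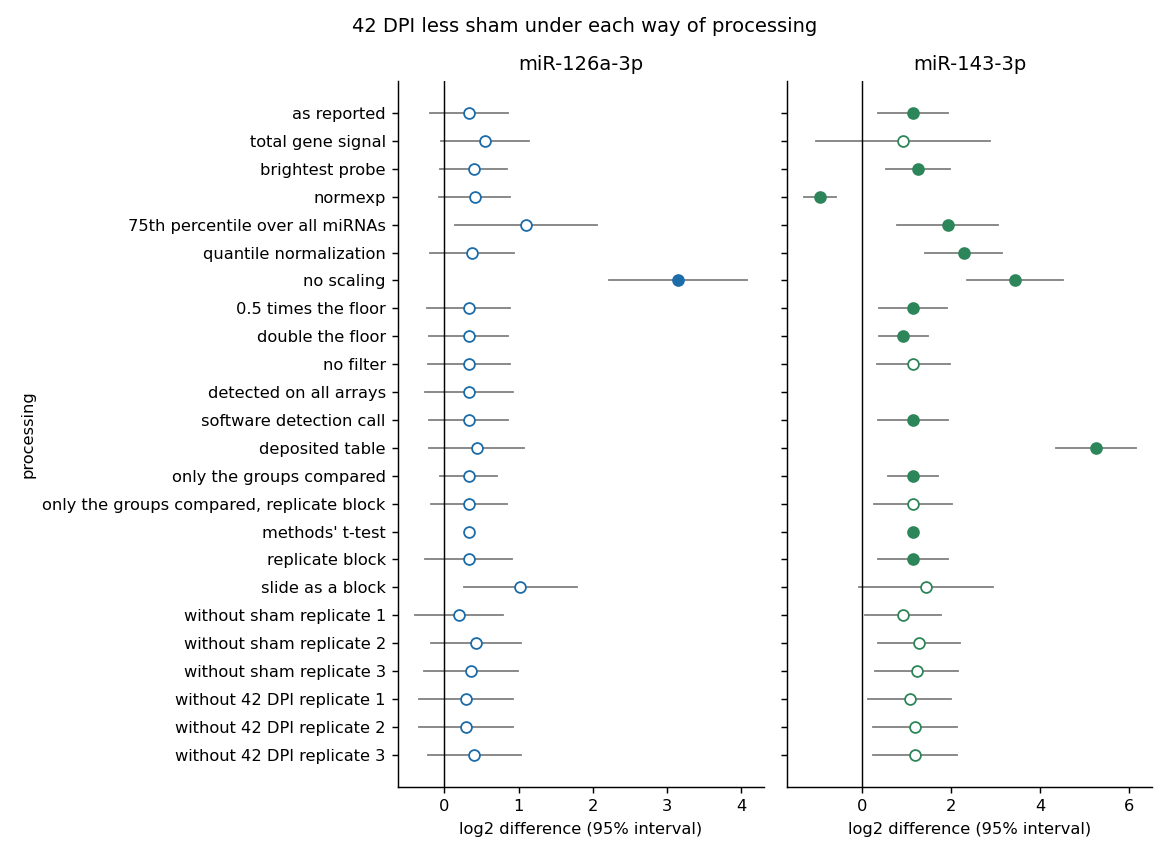
Log2 difference between 42 DPI and sham (x axis, with its 95% interval as a line, none for the methods' t-test) for miR-126a-3p and miR-143-3p under each way of processing (y axis); filled points have an adjusted p under 0.05. miR-143-3p is on the positive side under every setting but normexp, is called in some and not in others, and is not tested where detection on all arrays is asked for; miR-126a-3p is called only with no scaling, at 3.15.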

How the data were processed

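The 4 miRNAs, the gene lists and the tests were chosen with earlier results of these data known. The authors hybridised Cy3-labelled RNA to 12 one-colour Agilent miRNA arrays, and the submitters' processing notes name Feature Extraction 10.7.1.1. The deposited scanner files hold the intensity of each spot, background-subtracted by that software. The authors also deposited a table of processed log2 values, with a lowest value of -3.32, which is also the median of each of its 12 columns, and whose normalization is not given in the sources used here, and it was used as an alternative only.

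Control and outlier spots were left out, the 15 spots of each probe were averaged and probes summed per miRNA. Each sum was divided by the 75th percentile of its array, computed from the 230 miRNAs that every array detected, then floored at 0.03 and converted to log2. For testing, 486 miRNAs qualified by detection throughout 1 or more groups. A single limma model (version 3.58.1, R version 4.3.3) took in 12 arrays, with no covariates. Its two-sided p-values were adjusted by Benjamini-Hochberg over the 486, at a threshold of 0.05. Exact permutation tests used SciPy 1.17.1. The number of arrays limits the precision, and p-values measure the spread between arrays, which may be technical. No spot of a member was saturated. The fit was tested on simulated data. No column of another series was present.

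The planned comparison of miRNA pairs within an array could not be read with 1 partner at the floor on all arrays: its 12 tests, with adjusted p between 0.4 and 0.9 in an exact permutation test, then repeat the other partner. The intensity ratio before the floor was used instead, a choice made after seeing the data. The list miRNAs named were those called against sham, the members and, for likeness, the 3 nearest of the miRNAs detected on all arrays. Normexp, a correction that models signal and local background together (offset 50), other scalings, floors, filters, signals and fits were tried as alternatives.

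Arrays sharing a replicate number were checked for pairing. Their deviations from the group means correlated at 0.83, 0.44 and 0.75 between sham and 14 DPI. No label pairs these arrays, which came from different mice and slides, so a pairing there is read from these data alone. No other comparison had all 3 correlations above 0.1.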

Additional observations from a re-analysis of the deposited data

Results flagged for a closer look

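The change of miR-143-3p from sham was 1.14 at 42 DPI and 0.03 at 3 DPI on the log2 scale, and the difference of the 2 changes, which is that between the injured groups, was 1.11 and passed the test (limma, adjusted p = 0.0372). All 3 arrays of 42 DPI were above all 3 of 3 DPI, 1 of which did not detect the miRNA, and both changes share the sham arrays. The direction turned under normexp (-0.50, adjusted p = 0.0142). The call was lost with total gene signal (adjusted p = 0.861), no filter (0.187), double the floor (0.0516), the slide block (0.0587), the replicate block in a fit of the 2 groups (0.0893), the methods' t-test (0.0551) and on slide 2 alone (1.20; adjusted p = 0.0985). It was also lost without 3 DPI replicate 1 or 3 or any 1 of the 42 DPI arrays, where the difference was between 0.82 and 1.20. The deposited table kept the call between 42 and 3 DPI (1.26, limma, adjusted p = 0.0222). In that table, however, miR-143-3p was already higher at 3 DPI (3.24, 3.57 and 3.40) than in sham (-0.99, -0.20 and -0.60). The lack of a change from sham at 3 DPI thus depended on the values used.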

How the results depend on the processing

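miR-143-3p at 42 DPI against sham was higher under every alternative but normexp, and its call depended on the processing. It stayed called with the brightest probe (1.25), either floor, quantile normalization (2.28), a 75th percentile over all miRNAs (1.92), no scaling (3.43), the software's detection call and the deposited table (5.26). It was lost with total gene signal (0.91; limma, adjusted p = 0.45), no filter (adjusted p = 0.164) and the slide as a block (1.43), and was not tested where detection on all arrays was required. Of the 4 miRNAs, the number called at 42 DPI against sham was thus 0 with total gene signal, no filter, detection on all arrays and the slide block, 2 with quantile normalization and the deposited table, and 3 with normexp, no scaling and the percentile from all miRNAs. Over all miRNAs tested, the settings with 0 called 177 of 486, 18 of 1881, 118 of 230 and 0 of 486 in the same order. The calls under normexp were all lower (miR-126a-5p -1.90, miR-145a-5p -1.98 and miR-143-3p -0.95). Those with no scaling and with the percentile from all miRNAs were all higher. The part of the normexp offset (50 only) in its calls was not tested. Leaving out 1 array gave 0 of the 4 each time, and from 46 to 142 of all 486.

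Scaling moved all miRNAs together. The median of all tested miRNAs at 42 DPI against sham was -0.09 as reported, 0.68 when the percentile was taken from all miRNAs, 0.31 with quantile normalization, 1.76 with no scaling and -1.67 with normexp. The calls were 66 higher of 166 as reported, 166 of 230, 158 of 234, 382 of 382 and 41 of 429 in the same order. The deposited table called 249, of which 143 were higher, no filter called 18 and the slide block called 0. The cause was not tested.

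At 3 DPI against sham the deposited table called 3 of the 4, and 95 of all 486. At 14 DPI against sham, normexp called 3, and no scaling and the deposited values 2 each. Quantile normalization and the percentile from all miRNAs called 1 each. Of all 486, these called 370, 301, 143, 36 and 16 in the same order. At 14 against 3 DPI the deposited table called 1, and 107 of all 486. Both comparisons gave 0 to 1 with 1 array left out, and 1 without 14 DPI replicate 1 (84 and 72 of all 486 called higher). At 42 against 14 DPI normexp called 2, and no scaling and the deposited values 1 each, where they called 294, 144 and 16 of all 486.

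At 42 against 3 DPI the count was 0 with total gene signal, double the floor, no filter, detection on all arrays, the methods' t-test and within slide 2. Over all miRNAs tested these settings called 149 of 486, 41 of 486, 0 of 1881, 118 of 230, 165 of 486 and 0 of 486 in the same order. It was 2 with the brightest probe, quantile normalization and 0.5 times the floor, 3 with no scaling, and 4 with normexp, the deposited table and the percentile from all miRNAs. Of all 486, these settings called 153, 190, 231, 295, 414, 286 and 257 in the same order. Leaving out 1 array gave 0 to 1 of the 4, and from 0 to 190 of all 486. The count of members was 0 without 3 DPI replicate 3 or any 1 of the 42 DPI replicates. Without 3 DPI replicate 1, miR-126a-3p (limma, adjusted p = 0.0335) was called in place of miR-143-3p (adjusted p = 0.0587). The slide block gave these same values.

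Directions turned as follows. Under normexp miR-143-3p was -0.45 at 3 DPI, -0.67 at 14 DPI and -0.95 at 42 DPI against sham, -0.22 at 14 against 3 DPI, -0.28 at 42 against 14 DPI and -0.50 at 42 against 3 DPI. Its value at 3 DPI against sham was -0.039 after scaling to all miRNAs and from -0.18 to 0.32 with 1 array left out, and that at 42 against 14 DPI ran from -0.039 to 0.53 with 1 array left out. With total gene signal miR-143-3p was -0.12 at 14 against 3 DPI. With it miR-143-3p less miR-145a-5p was -0.85 at 14 DPI against sham, -1.54 at 14 against 3 DPI and -0.45 at 42 against 3 DPI. These pair values cannot be read as directions. The total gene signal of miR-145a-5p was 2.12, 1.55 and 2.00 of its summed intensity on 14 DPI replicates 2 and 3 and 42 DPI replicate 2. miR-126a-3p at 3 DPI against sham was 0.50 with no scaling, and 0.17 with the slide block and within slide 1.

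With the replicate number as a block over all arrays, miR-143-3p at 42 DPI against sham kept its call (1.14; limma, adjusted p = 0.0438) and the number called changed in no comparison. With the block in a fit of the 2 groups alone, 0 of 4 were called at 42 DPI against sham (limma, adjusted p = 0.0737) and 0 at 42 against 3 DPI. Of all 486 tested miRNAs, this fit called 128 and 0 in the same order. Only for sham and 14 DPI did arrays of the same number deviate together, and there the block called 0 as well.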

Other observations

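In the deposited table of processed log2 values, 1 array of a group often stood exactly at the mean of the other 2 (within 1e-06). Among the tested miRNAs with unequal values, the count was 111 of 485 for sham. It was 109 of 481 for 3 DPI, 108 of 484 for 14 DPI, and 63 of 483 for 42 DPI. Of the members, it held for miR-145a-5p in all 4 groups, for miR-143-3p in sham (replicate 3) and 3 DPI (replicate 3), and for miR-126a-5p at 3 DPI (replicate 1) and 14 DPI (replicate 2). miR-126a-3p had no such value. For miR-143-3p in sham the table gives -0.99, -0.20 and -0.60, and at 3 DPI 3.24, 3.57 and 3.40. Among miRNAs detected on all 3 arrays of their group, the counts were 0 of 234 (sham), 10 of 301 (3 DPI), 28 of 367 (14 DPI) and 61 of 480 (42 DPI).

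The scanner software's total gene signal for miR-126a-3p was between 0.21 and 0.28 of the summed probe intensity on every array. For faint members it was not: the ratio was 1.03 for miR-143-3p on sham replicate 3 and 2.21 on 3 DPI replicate 3, and for miR-145a-5p it was 2.12 and 1.55 on 14 DPI replicates 2 and 3 and 2.00 on 42 DPI replicate 2, against 0.27 on the other 42 DPI arrays. miR-145a-5p thus had a total gene signal of 44.2 on 42 DPI replicate 2 and 14.1 on replicate 1, where its probes were brighter. Over all miRNAs and arrays where the software called detection and the rule on spots did not, the ratio was above 1 in 417 of 1001 cases, compared with 441 of 4909 where both did.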
